A study of Mus musculus with 48 samples.

Results

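Cells that meet drugs, plant compounds and bacterial products modify them in steps. Cytochrome P450 enzymes of the Cyp1, Cyp2 and Cyp3 families oxidise a compound, glutathione S-transferases (Gst), UDP-glucuronosyltransferases (Ugt) and sulfotransferases (Sult) then attach glutathione, glucuronic acid or sulfate, and export pumps remove the product. In the gut this chemistry is best known from enterocytes, the absorptive cells, and several of the enzymes also act on the body's own fatty acids, steroids and amines. Most of the genes lie in arrays of tandem copies.

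The protein-coding genes of the mouse count table with a symbol of these 4 families numbered 116 of 53465 genes listed, with 60 Cyp, 22 Gst, 19 Ugt and 15 Sult genes. The microsomal glutathione transferases and sulfotransferases of other numbered families were not members and are given with the pathway genes. Expression was measured in enteroendocrine cells (EECs), the hormone-secreting cells of the gut epithelium, sorted as yellow fluorescent, CD45-negative cells from mice with Neurod1-cre and an EYFP reporter. Cre then marks every descendant of a Neurod1-expressing cell. The mice were lean males on a C57BL6 background, about 20 weeks old at surgery, fed chow apart from liquid diet around the operation, and all received analgesic and antibiotics. VSG mice had about 70% of the stomach removed (vertical sleeve gastrectomy) and were given vitamin B12 weekly. Sham-operated mice were fed ad libitum (S_al) or received food in separate portions each day to match the weight of the VSG mice (S_wm). Tissue was collected 6 weeks after surgery, following an overnight fast and, some 15 min beforehand, glucose by gavage (3 g/kg). Duodenum stands for the top 5 cm of the small intestine, ileum for the bottom 15 cm, and colon for colon with rectum. Each region had 5 S_al, 5 S_wm and 6 VSG libraries, 48 in all from 17 mice.

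Total counts ranged from 4648651 to 17182463 per library with a median of 6713018. Levels are CPM, counts scaled to a common library size after TMM normalisation. A list of 9 EEC markers, with Neurod1 and the chromogranin genes Chga and Chgb, summed to at least 29272 CPM in 47 libraries. The exception was the duodenum library of S_wm mouse 27, with 12038 CPM, where 12 enterocyte markers summed to 61548 CPM against 7128 to 18665 CPM in the other 15 duodenum libraries. Counts over all tested enzyme genes that differed from the duodenum are therefore given with and without it. Counts by family, array or pathway list include it. Levels, sums and fold changes of single genes and families also include it unless stated. For mouse 12, the ileum and the colon library have description codes that are crossed against their tissue labels, and the tissue labels were used. The enterocyte markers summed to 16092 CPM in its library labelled ileum and to 1115 CPM in that labelled colon. Over all libraries of these labels the sums were 5929 to 20828 CPM in the ileum and 810 to 1413 CPM in the colon.

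Of the 116 genes, 61 passed the filter on low counts and were tested among 15126 genes: 28 Cyp, 18 Gst, 10 Ugt and 5 Sult genes. The other 55 had at most 227 counts over all libraries and a mean of at most 1.03 CPM in a region, reached by Cyp3a16, and 7 of them had no count. All 8 Sult2a genes on chromosome 7, hydroxysteroid sulfotransferases, were among the genes not tested. Of the 61, 37 had a mean of at least 1 CPM in each region, 10 in 2 regions and 14 in 1 region. A gene that passed the filter only through the region where it is high had to differ between regions, so the counts below describe the 61 tested genes and not the whole families. Close copies limit some values, because reads of 50 bases may match more than 1 gene. The share of 50-base stretches that also occur in another gene was 90.5% for Gsta1, between 52.1% and 64.0% for the 5 tested Ugt1a genes, which share their last exons, 54.3% for Cyp2c69, 43.3% for Cyp2c68, 41.7% for Ugt2b5 and 35.8% for Cyp2d10. It was 33.7% for Gstp1, 26.8% for Cyp3a25, 21.8% for Cyp2d9, 20.6% for Cyp2c65 and 19.5% for Cyp2c66.

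The start regions of 5 genes are shown because these genes carry large differences between regions: Cyp3a11, Cyp2j5 and Ugt2a3 fell to near 0 in the colon, and Cyp2c55 and Sult1a1 were high there. Each runs 5′ to 3′ on the strand of the gene from 250 bases before to 50 bases after the RefSeq start (GRCm38.p6). The windows are chr5:145879805-145880104 (minus strand) for Cyp3a11, chr4:96664070-96664369 (minus strand) for Cyp2j5, chr5:87337146-87337445 (minus strand) for Ugt2a3, chr19:39006769-39007068 (plus strand) for Cyp2c55 and chr7:126676369-126676668 (minus strand) for Sult1a1. The RefSeq start lay 110 bases from that of the gene annotation used for coordinates in Cyp3a11, 35 bases in Cyp2j5, 14 bases in Sult1a1 and at the same base in the others. Capitals mark AGGTCA (a core that nuclear receptors bind), AGATAA (a motif of the GATA family), GTTAAT (a motif of HNF1 proteins) or TTTATG (a motif of CDX proteins), on either strand.
Cyp3a11: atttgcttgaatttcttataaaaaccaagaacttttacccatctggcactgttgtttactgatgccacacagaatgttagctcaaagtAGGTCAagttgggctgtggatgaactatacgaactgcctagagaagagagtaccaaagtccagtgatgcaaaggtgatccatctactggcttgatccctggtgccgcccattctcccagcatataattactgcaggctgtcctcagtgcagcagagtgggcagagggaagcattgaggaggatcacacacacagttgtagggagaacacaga
Cyp2j5: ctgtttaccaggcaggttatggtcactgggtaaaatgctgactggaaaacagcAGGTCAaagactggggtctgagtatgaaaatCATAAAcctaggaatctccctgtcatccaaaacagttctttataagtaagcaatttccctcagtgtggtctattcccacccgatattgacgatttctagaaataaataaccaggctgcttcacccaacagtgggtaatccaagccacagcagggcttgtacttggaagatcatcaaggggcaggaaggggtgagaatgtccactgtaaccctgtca
Ugt2a3: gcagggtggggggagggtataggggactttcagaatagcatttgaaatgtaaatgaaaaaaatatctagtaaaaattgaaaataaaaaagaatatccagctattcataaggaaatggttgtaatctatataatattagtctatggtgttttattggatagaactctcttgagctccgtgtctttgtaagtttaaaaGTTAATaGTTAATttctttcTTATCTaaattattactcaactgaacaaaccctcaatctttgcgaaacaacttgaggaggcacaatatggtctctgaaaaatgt
Cyp2c55: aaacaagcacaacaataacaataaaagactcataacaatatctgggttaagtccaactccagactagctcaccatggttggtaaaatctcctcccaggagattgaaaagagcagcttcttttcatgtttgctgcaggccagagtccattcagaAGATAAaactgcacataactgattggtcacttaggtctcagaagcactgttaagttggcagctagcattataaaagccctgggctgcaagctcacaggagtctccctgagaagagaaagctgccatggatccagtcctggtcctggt
Sult1a1: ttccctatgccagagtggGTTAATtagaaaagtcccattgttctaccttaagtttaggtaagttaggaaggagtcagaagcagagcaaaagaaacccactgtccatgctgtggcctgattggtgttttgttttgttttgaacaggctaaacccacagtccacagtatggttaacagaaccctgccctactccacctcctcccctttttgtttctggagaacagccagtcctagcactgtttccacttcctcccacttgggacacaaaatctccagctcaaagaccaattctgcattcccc

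Cyp3a11 held AGGTCA, Cyp2j5 held AGGTCA and the CDX motif read on the other strand as CATAAA, and Ugt2a3 held GTTAAT in 2 copies a base apart followed by the GATA motif on the other strand, as TTATCT. Cyp2c55 held AGATAA and Sult1a1 held GTTAAT. Of the 61 tested genes 55 matched a RefSeq start. AGATAA was in 13 of the 55 windows (23.6%) and in 11.2% of all 32851 windows, GTTAAT in 10 (18.2%, all 7.10%), AGGTCA in 13 (23.6%, all 16.3%) and TTTATG in 5 (9.09%, all 11.9%). The other motifs were searched in the same way. The core of the aryl hydrocarbon receptor site, GCGTG, was in 14 windows (25.5%, all 32.4%), the NRF2 element TGACNNNGC in 5 (9.09%, all 12.4%) and the D-box TTATGTAA in 0 (all 0.938%). Of the genes highest in the duodenum or colon, as defined below, 26 and 15 had a window. AGATAA was in 8 and 2 of these, AGGTCA in 7 and 2, GCGTG in 7 and 3, GTTAAT in 4 and 3, TTTATG in 3 and 1, TGACNNNGC in 3 and 2 and TTATGTAA in 0 and 0. These matches describe letters in a short window and no test was run on them.

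The first comparison asked how the enzymes of EECs differ along the gut. A small number of genes took most of the reads of each family. The sums and shares are in CPM, which is not corrected for gene length. The summed Cyp level had a median of 1056 CPM in duodenum, 572 CPM in ileum and 1077 CPM in colon. Cyp3a11, Cyp3a13 and Cyp2c65 made up 59.0% of the mean Cyp sum in the duodenum, whereas Cyp2c55 alone made up 60.7% of it in the colon. The summed Gst level had medians of 737, 391 and 530 CPM in duodenum, ileum and colon, with Gsto1 at 31.3%, 48.7% and 33.6% of the mean sum. The Ugt medians were 314, 304 and 399 CPM, with Ugt2b34 at 55.3% to 59.9%. The Sult medians were 227, 217 and 421 CPM, with Sult1d1 at 61.4% and 54.5% in duodenum and ileum and, in the colon, Sult1d1 at 39.4% and Sult1a1 at 33.7%.

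**Figure D1:**
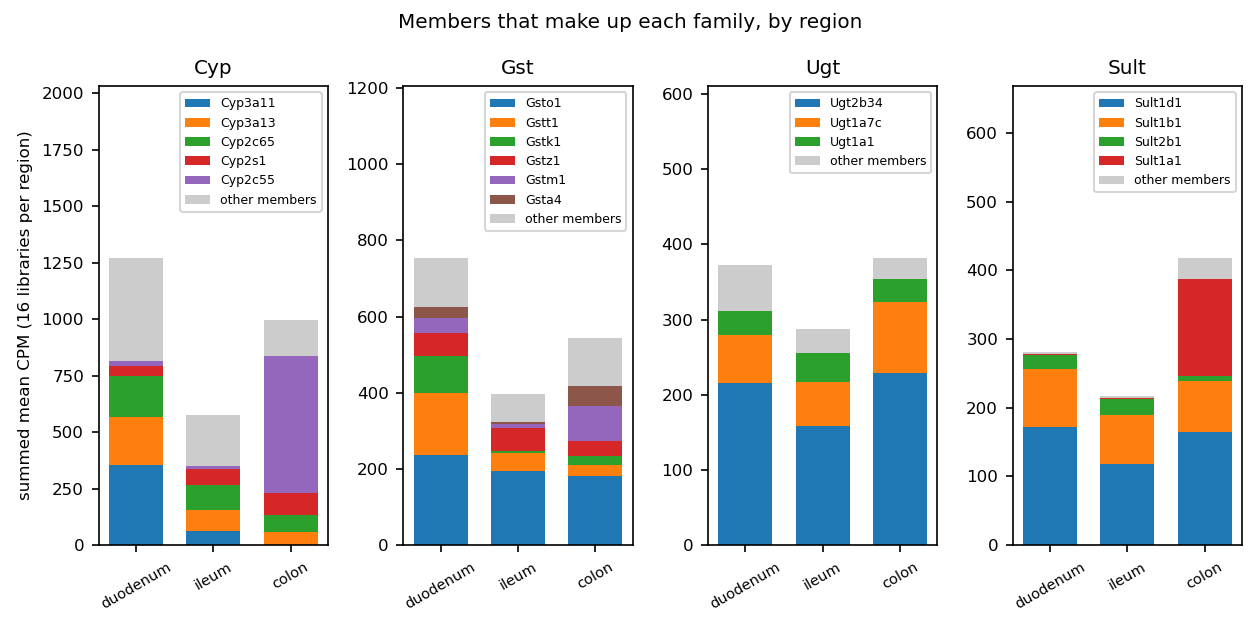
Mean CPM of the members of each family, stacked, in the duodenum, ileum and colon (bars start at 0; 16 libraries per region, all surgery groups). Colours are the genes among the 3 of highest mean in a region and grey is the sum of the rest. Cyp2c55 fills 60.7% of the Cyp bar of the colon, and Sult1a1 appears only in the Sult bar of the colon at a visible height.

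By edgeR's quasi-likelihood test, averaged over surgery groups, 38 of the 61 genes differed between ileum and duodenum, 5 higher and 33 lower in the ileum. Among all 15126 genes 33.8% differed in that comparison, 17.2% higher and 16.6% lower. Between colon and duodenum 50 genes differed, 18 higher and 32 lower in the colon, against 55.0% of all genes (26.8% higher and 28.3% lower). Between colon and ileum 43 differed, 25 higher and 18 lower in the colon, against 49.2% of all genes (23.8% and 25.4%). The median log2 fold change of the 61 genes was -0.91 for ileum against duodenum, -0.65 for colon against duodenum and 0.14 for colon against ileum, where the medians of all genes were 0.0045, -0.015 and -0.011. Past the threshold against both other regions, 26 genes were highest in the duodenum (16 Cyp, 7 Gst and 3 Ugt), 18 in the colon (8 Cyp, 6 Gst, 2 Ugt and 2 Sult) and 1, Cyp2u1, in the ileum. Of all genes 10.8% were highest in the duodenum, 18.1% in the colon and 6.27% in the ileum by the same rule. Without the duodenum library of mouse 27 the counts were 23, 20 and 3 of 64 genes, against 11.3%, 19.1% and 8.04% of all genes. Without the duodenum library of mouse 27, 64 genes were tested, of which 37 differed between ileum and duodenum (38.3% of all 15457 genes then tested) and 53 between colon and duodenum (56.4% of all genes). The 37 were 8 higher and 29 lower in the ileum, and the 53 were 21 higher and 32 lower in the colon. The median log2 fold changes of the 64 genes were then -0.63 and -0.62. Of the 37 and 53 genes, 33 and 48 were also called with that library. Cyp1a1, Cyp2b10, Cyp2d26, Ugt2a3 and Ugt2b35 lost the ileum call and Gsto1 and Ugt1a6a the colon call. Cyp2d22, Cyp3a16, Sult2b1 and Ugt1a1 gained an ileum call, and Cyp2d22, Cyp3a16, Gstm4, Gstp3 and Ugt2b34 a colon call. Cyp3a16 and Gstp3 had not passed the filter with that library.

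**Figure D2:**
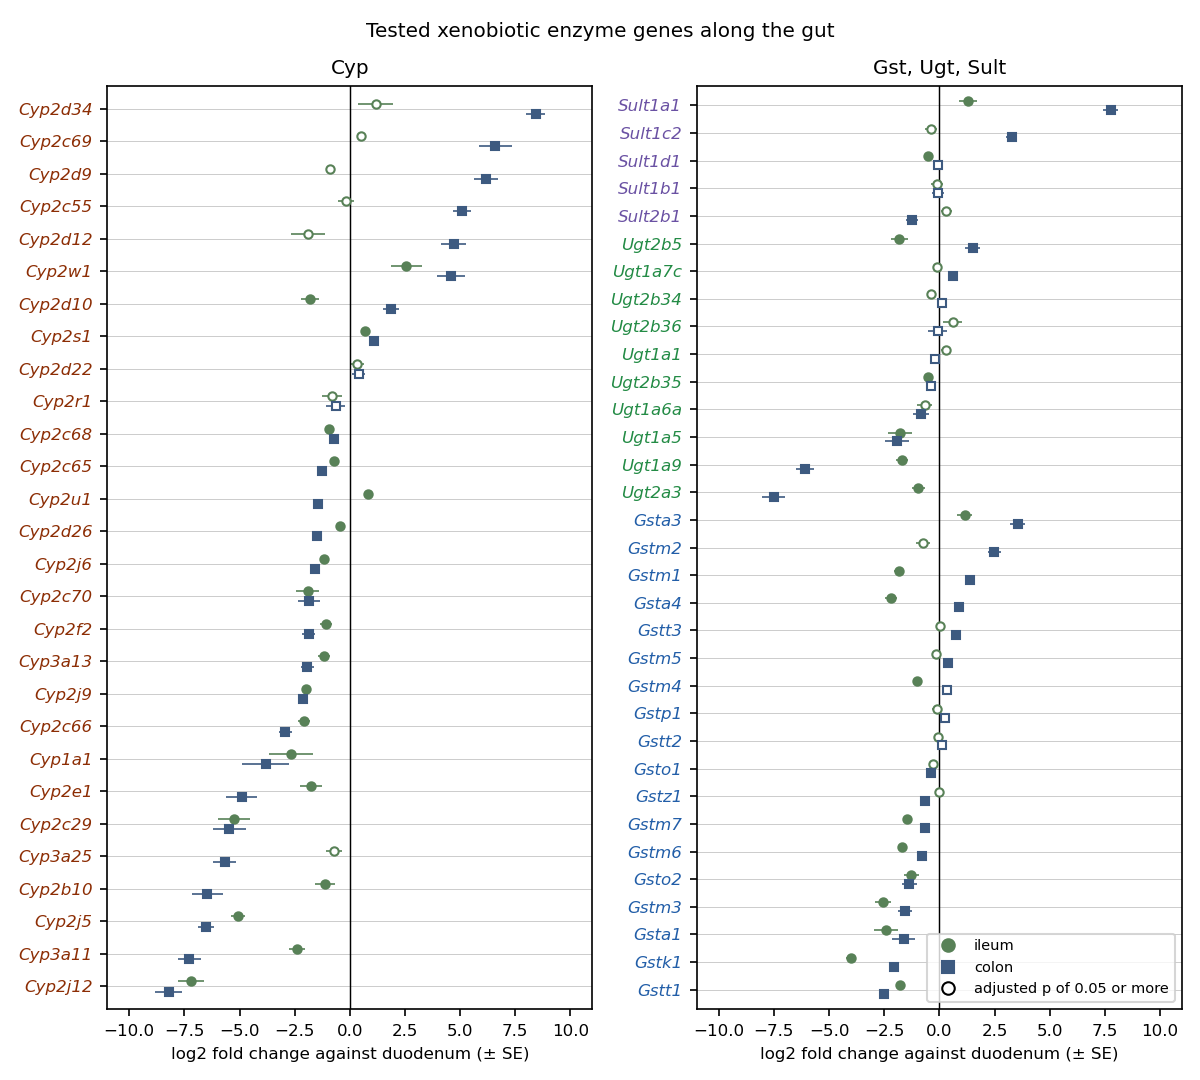
Log2 fold change against duodenum (± SE, edgeR) of the 61 tested genes, one row per gene, for ileum (green circles) and colon (blue squares). Filled symbols passed an adjusted p of 0.05, and an SE of 5 or more, of genes with almost no reads in both regions, is not drawn. The Cyp panel spreads from -8.21 (Cyp2j12) to 8.43 (Cyp2d34), both in the colon.

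Markers of other cells moved with region as well. The 12 enterocyte markers all had lower levels in colon than in either small-intestinal region, with sums of 810 to 1413 CPM in the colon, 5929 to 20828 CPM in the ileum and 7128 to 61548 CPM in the duodenum. Of 8 colonocyte markers 7 were higher in the colon than in the duodenum (sums of 634 to 2064 against 112 to 402 CPM). The 7 goblet cell markers summed to 3153 to 14065 CPM in the colon, 1633 to 9546 CPM in the ileum and 2774 to 6126 CPM in the duodenum. The 9 EEC markers summed to a median of 56335, 43934 and 46935 CPM in duodenum, ileum and colon, with 6 of the 9 lower in the ileum than in the duodenum and 7 lower and 1 higher in the colon. Of lists of 7 genes each, Paneth cell markers summed to medians of 295, 2557 and 17.6 CPM in duodenum, ileum and colon, crypt markers to 1496, 2706 and 637 CPM and immune markers to 123, 896 and 15.01 CPM. None of the genes of these lists was at 0 throughout a region. In these bulk libraries fewer cells of a type and less RNA per cell cannot be told apart, and the part of such cells in the regional differences of the enzymes was not tested.

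Among the oxidases, Cyp3a11 and Cyp3a25, the tested 2 of the 8 Cyp3a genes of the chromosome 5 array, and Cyp2b10 had lower levels in colon than in small intestine. Cyp3a11 (chr5:145854426-145879964, minus strand), a drug and steroid oxidase related to human CYP3A4, had 98.0 to 1562 CPM in the duodenum (median 264), 14.1 to 175 CPM in the ileum (median 58.6) and 0 to 12.5 CPM in the colon (median 1.75). The highest colon library lay below the lowest ileum library. Its log2 fold change was -2.39 ± 0.37 (SE) for ileum and -7.27 ± 0.51 for colon against duodenum (edgeR, adjusted p = 2.48e-06 and 5.7e-16). Its neighbour Cyp3a25 fell by 5.68 on the log2 scale in the colon, with an SE of 0.51, and its ileum difference of -0.72 ± 0.35 did not pass the test (edgeR, adjusted p = 0.111). Cyp2b10, known as a target of the drug sensor CAR, had 1.62 to 191 CPM in the duodenum, 0.475 to 28.8 CPM in the ileum and at most 1.59 CPM in the colon, where 9 of 16 libraries were at 0. The 191 CPM of Cyp2b10 came from mouse 27, and the other 15 duodenum libraries had at most 39.5 CPM. Cyp3a13, which lies apart from the array, had log2 fold changes of -1.17 ± 0.28 in the ileum and -1.92 ± 0.29 in the colon, and kept a median of 52.7 CPM there. Its duodenum level was 1107 CPM in mouse 27 and 82.5 to 322 CPM in the other 15.

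The Cyp2j array on chromosome 4 (chr4:96027534-96664154) encodes epoxygenases of arachidonic acid and related fatty acids. All 4 tested members of 8 were lower in ileum and in colon than in the duodenum, as were 16.6% and 28.3% of all genes. Cyp2j12 could not pass the filter through the colon, so the count does not describe the array as a whole. Cyp2j5 (chr4:96628773-96664154, minus strand) had 12.4 to 132 CPM in the duodenum (median 71.8), 0 to 6.93 CPM in the ileum (median 2.13) and 0 to 2.59 CPM in the colon (median 0.387). No library of the ileum or colon reached the lowest of the duodenum, which was that of mouse 27. The log2 fold changes were -5.05 ± 0.32 and -6.52 ± 0.36 (edgeR, adjusted p = 1.6e-16 and 1.64e-19). Cyp2j12 had 1.30 to 18.3 CPM in the duodenum and 3 counts in all over the colon libraries, a ratio of pooled counts of 342 (95% counting interval 117 to 1661). Cyp2j6 had 77.0 to 157 CPM in the duodenum and 26.4 to 54.9 CPM in the colon, and Cyp2j9 6.94 to 14.8 and 0.974 to 3.65 CPM, so that both remained expressed at a lower level.

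The Cyp2c array on chromosome 19 (chr19:39007019-40187333) held genes of opposite direction side by side. Between colon and duodenum 2 of the 7 tested genes were higher and 5 lower, where 26.8% and 28.3% of all genes were. Cyp2c69, 1 of the 2, could not pass the filter through the duodenum, and Cyp2c29, 1 of the 5, not through the colon. The count therefore does not describe the array as a whole. Cyp2c55 (chr19:39007019-39042693, plus strand), an oxidase of arachidonic acid, had 213 to 1137 CPM in the colon (median 648), 3.64 to 120 CPM in the duodenum (median 12.8) and 2.56 to 68.6 CPM in the ileum (median 13.7). Every colon library lay above every library of the small intestine. The log2 fold change was 5.09 ± 0.41 against duodenum and 5.28 ± 0.41 against ileum (edgeR, adjusted p = 3.57e-14 and 3.04e-14). The next gene of the array, Cyp2c65, had log2 fold changes of -0.70 ± 0.14 in the ileum and -1.27 ± 0.15 in the colon, and was the Cyp gene of highest level per kilobase of exon in duodenum and ileum, at 94.1 and 58.3 CPM per kb. Cyp2c66 had -2.07 ± 0.28 and -2.92 ± 0.30, and Cyp2c29 had 0.101 to 20.1 CPM in the duodenum and was at 0 in 14 of 16 libraries of the ileum and of the colon. Cyp2c69 had no count in any duodenum library and a mean of 1.73 ± 1.26 CPM (SD, n = 16) in the colon, at least 79.6-fold higher than a floor of 3 counts over the duodenum libraries. Counting error alone is covered by such floors and intervals.

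The Cyp2d array on chromosome 15 (chr15:82370527-82794294), related to human CYP2D6, had 6 tested genes of 8. Against the duodenum 4 of the 6 were higher in the colon and 1 lower (26.8% and 28.3% of all genes). Of the 4, Cyp2d9, Cyp2d12 and Cyp2d34 had a median of 0 CPM over the 15 duodenum libraries other than that of mouse 27. These genes could not pass the filter through the duodenum, so the count does not describe the array as a whole. Cyp2d34 (chr15:82615965-82620946, minus strand) had 8.12 to 47.6 CPM in the colon (median 24.1), and was at 0 in 12 duodenum and 10 ileum libraries, with highest values of 0.370 and 1.10 CPM. Its log2 fold change against duodenum was 8.43 ± 0.44 (edgeR, adjusted p = 1.09e-21). Cyp2d9, Cyp2d10 and Cyp2d12 had mean colon levels of 3.10, 5.82 and 4.44 CPM and were higher there than in both other regions. Cyp2d26, at the end of the array, went the other way, with 25.6 to 146 CPM in the duodenum, 19.996 to 68.7 CPM in the ileum and 8.01 to 26.1 CPM in the colon, a log2 fold change of -1.48 ± 0.17 for colon against duodenum. The 146 CPM came from mouse 27, and the other 15 duodenum libraries had at most 56.3 CPM.

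Of the Cyp genes outside these arrays, Cyp2e1, an oxidase of ethanol and small solvents, had a log2 fold change of -4.90 ± 0.70 in the colon against duodenum. Its level was low in the duodenum too, at 0.101 to 6.17 CPM. Cyp2s1, which acts on retinoids and eicosanoids, was highest in the colon, with medians of 42.6 CPM in the duodenum, 65.5 CPM in the ileum and 92.7 CPM in the colon. Its log2 fold changes against duodenum were 0.67 ± 0.11 and 1.10 ± 0.11. Cyp2u1, a fatty acid hydroxylase, was highest in the ileum, with 28.9 to 78.9 CPM against 17.3 to 42.4 CPM in the duodenum and 4.61 to 21.1 CPM in the colon. The log2 fold change of Cyp2u1 was 0.81 ± 0.13 for ileum against duodenum and -2.25 ± 0.13 for colon against ileum. Exons of both genes overlap a gene on the other strand, as do those of 19 of the 116 genes, and whether counting used strand is not given in the sources used here.

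**Figure D3:**
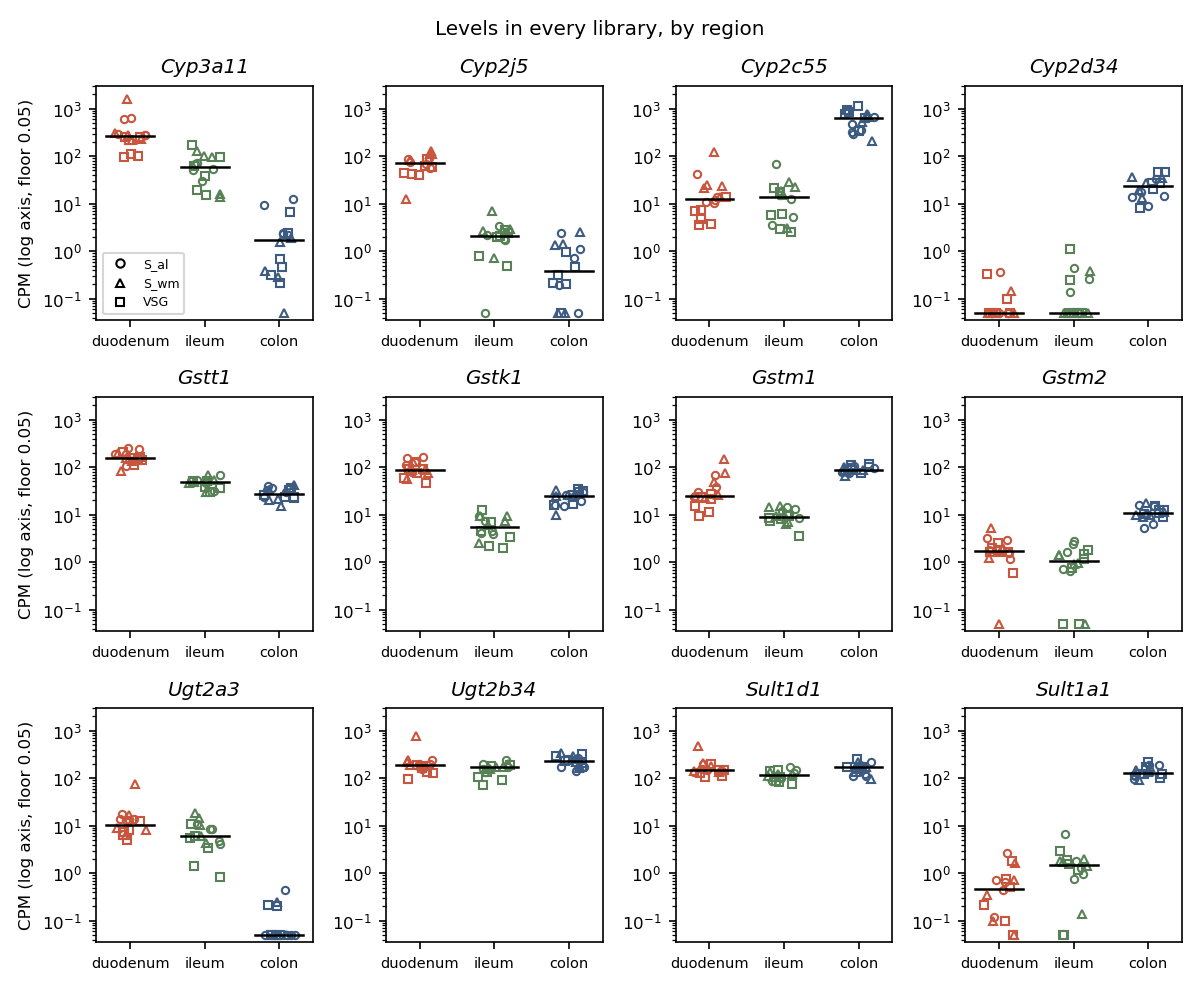
CPM in each of 48 libraries (log axis, values under 0.05 drawn at 0.05) of 12 genes by region, with circles for S_al, triangles for S_wm and squares for VSG, and bars at the median of 16 libraries. Cyp3a11, Cyp2j5 and Ugt2a3 step down to the colon, Cyp2c55, Cyp2d34 and Sult1a1 step up in it, and Gstk1 and Gstm1 have their lowest median in the ileum.

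Among the Gst genes, 10 of 18 were lower and 1 higher in the ileum than in the duodenum (16.6% and 17.2% of all genes). From ileum to colon 11 were higher and 2 lower (23.8% and 25.4% of all genes). Past the threshold on both sides, 7 of the 18 were lowest in the ileum, as were 1 of 28 Cyp genes and 4.96% of all genes; the difference between families was not tested. Gstk1 (chr6:42245935-42250447, plus strand), a mitochondrial and peroxisomal transferase, had 46.6 to 164 CPM in the duodenum (median 89.2), 1.95 to 12.8 CPM in the ileum (median 5.41) and 9.71 to 34.3 CPM in the colon (median 25.02). The duodenum did not overlap either other region. The log2 fold change was -4.02 ± 0.22 for ileum against duodenum and 1.97 ± 0.21 for colon against ileum (edgeR, adjusted p = 7.65e-19 and 1.27e-10). Gsta4, which conjugates the lipid peroxidation product hydroxynonenal, had medians of 19.3, 5.31 and 52.2 CPM in duodenum, ileum and colon, with log2 fold changes of -2.19 ± 0.26 for ileum against duodenum and 3.09 ± 0.26 for colon against ileum.

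The 7 Gstm genes on chromosome 3 (chr3:107895821-108044894) were all tested and all higher in the colon than in the ileum, with log2 fold changes from 0.54 to 3.24. Of all genes 23.8% were higher in that comparison. Against the duodenum, 3 of the 7 were higher and 3 lower in the colon (26.8% and 28.3% of all genes). Gstm1 (chr3:108012255-108017973, minus strand) had 66.0 to 117 CPM in the colon (median 88.3), 9.51 to 152 CPM in the duodenum (median 25.2) and 3.48 to 15.4 CPM in the ileum (median 8.997). The colon and ileum libraries did not overlap, and the duodenum library of mouse 27 exceeded all colon libraries. Gstm2 rose by 2.497 ± 0.29 in the colon against duodenum, whereas Gstm3 fell by 1.56, with an SE of 0.33. The duodenum library of mouse 27 had 145 CPM of Gstm3, against 7.09 to 58.9 CPM in the other 15. For Gstm3 28.8% and for Gstm1 18.9% of the 50-base stretches recur in another gene.

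Of the other Gst genes, Gstt1 (chr10:75783813-75798584, minus strand), which acts on small halogenated compounds, had 82.2 to 250.7 CPM in the duodenum (median 157), 30.3 to 69.7 CPM in the ileum and 14.97 to 42.5 CPM in the colon, a log2 fold change of -2.502 ± 0.14 in the colon (edgeR, adjusted p = 4.4e-20). Its neighbours differed less or in the other direction: Gstt3 was higher in the colon (0.76 ± 0.16) and Gstt2 passed no comparison of regions. Gsta3 was higher in the colon, with 4.28 to 21.8 CPM against 0 to 2.91 CPM in the duodenum, a log2 fold change of 3.55 ± 0.34. Gsto1, a reductase of dehydroascorbate and arsenic compounds, was the Gst gene of highest level per kilobase of exon in each region, at 116, 95.7 and 90.3 CPM per kb, and its medians of 212, 191 and 185 CPM differed little. Gstz1, of tyrosine breakdown, had a log2 fold change of -0.00 ± 0.09 for ileum and -0.65 ± 0.09 for colon against duodenum.

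Of the glucuronidating genes, Ugt2b34 had medians of 186, 172 and 226 CPM in duodenum, ileum and colon. Its difference between colon and ileum passed the test (log2 fold change 0.51 ± 0.16), and those against the duodenum did not. The duodenum library of mouse 27 had 783 CPM, against 97.7 to 241 CPM in the other 15. Without that library the difference between colon and duodenum passed as well. Ugt2a3 (chr5:87324972-87337195, minus strand) had 4.98 to 74.1 CPM in the duodenum (median 10.5), 0.814 to 18.7 CPM in the ileum (median 6.02) and at most 0.453 CPM in the colon, where 12 of 16 libraries were at 0. The 74.1 CPM came from mouse 27, and the other 15 duodenum libraries had 4.98 to 17.3 CPM, within the range of the ileum. Without that library the difference between ileum and duodenum did not pass. The log2 fold change of Ugt2a3 for colon against duodenum was -7.51 ± 0.51 (edgeR, adjusted p = 2.72e-17). Ugt2b5, in the same array (chr5:86889767-87591594), was lowest in the ileum, with medians of 1.96, 0.453 and 6.52 CPM in duodenum, ileum and colon. In the Ugt1a locus (chr1:88055388-88220002), whose genes share exons on the same strand, Ugt1a9 had 3.61 to 27.2 CPM in the duodenum and 0 to 1.15 CPM in the colon, a log2 fold change of -6.11 ± 0.42, and Ugt1a7c had 28.3 to 218 and 37.97 to 133 CPM, one of 0.60 ± 0.19, which turned to -0.23 with a term for the library index. The 218 CPM of Ugt1a7c came from mouse 27, and the other 15 duodenum libraries had at most 87.0 CPM. Ugt1a1, the bilirubin conjugating enzyme, had medians of 26.6, 40.7 and 28.5 CPM. How reads of the shared exons were assigned is not given in the sources used here, so the differences between Ugt1a genes are uncertain.

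Of the 5 tested sulfotransferases, Sult1a1 and Sult1c2 were highest in the colon. Sult1a1 (chr7:126672865-126676432, minus strand), which sulfates phenols, had 90.3 to 218 CPM in the colon (median 131), 0 to 2.72 CPM in the duodenum (median 0.476) and 0 to 6.63 CPM in the ileum (median 1.46). No small-intestinal library came near the lowest of the colon. The log2 fold change was 7.76 ± 0.34 against duodenum and 6.46 ± 0.31 against ileum (edgeR, adjusted p = 4.76e-23 and 2.94e-21). Its exons overlap Sgf29 on the other strand. Sult1c2 had medians of 2.69, 1.83 and 31.6 CPM in duodenum, ileum and colon and a log2 fold change of 3.29 ± 0.25 for colon against duodenum. Sult1d1, a sulfotransferase of catecholamines and eicosanoids, was expressed throughout, with medians of 148, 116 and 170 CPM, and was lowest in the ileum (-0.53 ± 0.14 against duodenum). Sult1b1, which sulfates thyroid hormones, had medians of 55.0, 71.7 and 82.0 CPM, and none of its 3 comparisons of regions passed the test. Sult2b1, a cholesterol sulfotransferase, had a log2 fold change of -1.25 ± 0.27 for colon against duodenum. The duodenum library of mouse 27 had 127 CPM of it, against 8.71 to 20.7 CPM in the others. Its difference between ileum and duodenum passed without that library and not with it.

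The genes that serve these enzymes were read from lists of partners, cofactor supply, further conjugating enzymes, transporters and sensors. Their counts stand against the shares of all genes given above, 55.0% for colon against duodenum with 26.8% higher and 28.3% lower. For ileum against duodenum 17.2% of all genes were higher and 16.6% lower. Of 14 genes of oxidation other than P450s, against the duodenum 11 were lower and 2 higher in colon, and 10 were lower and 2 higher in ileum. Fmo1, a flavin monooxygenase, fell in 2 steps, with medians of 64.4, 15.7 and 2.51 CPM and a log2 fold change of -4.71 ± 0.19 in the colon. Por, the reductase that passes electrons to every microsomal P450, had medians of 305, 243 and 211 CPM and a log2 fold change of -0.64 ± 0.08 in the colon; it was named after its values were seen. Of 10 genes of cofactor supply 5 had higher and 3 had lower levels in colon than in duodenum. Ugdh, which makes UDP-glucuronic acid, had medians of 98.9, 56.0 and 246 CPM, a log2 fold change of 2.00 ± 0.18 for colon against ileum, and Papss2, which makes the sulfate donor, had 316, 74.9 and 205 CPM, one of -2.59 ± 0.23 for ileum against duodenum. Ggt1, of glutathione turnover, had a log2 fold change of -4.68 ± 0.41 and the glutathione synthetase gene Gss one of 1.14 ± 0.13 for colon against duodenum.

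Of 8 tested further conjugating enzymes 4 had higher levels and 1 a lower level in colon than in duodenum, with Sult4a1 at 2.47 ± 0.40 and Tpmt at -0.77 ± 0.16 on the log2 scale. Of 9 tested transporters 4 were higher and 5 lower. Abcc2, an exporter of glucuronides and glutathione conjugates, had 59.3 to 495 CPM in the duodenum and 0 to 10.9 CPM in the colon, a log2 fold change of -5.69 ± 0.33, and Abcb1a, the P-glycoprotein gene, had one of 0.83 ± 0.17. Of 20 tested sensors and transcription factors 8 were higher and 7 lower. Gata4 fell furthest, from 101 to 198 CPM in the duodenum through 23.7 to 79.9 CPM in the ileum to at most 2.49 CPM in the colon, a log2 fold change of -7.26 ± 0.24 for colon against duodenum (edgeR, adjusted p = 5.75e-28). Of 7 NRF2 target enzymes 1, Hmox1, was higher (2.25 ± 0.44) and 2 were lower.

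The duodenum library of mouse 27 was read separately because many of the enzymes were extreme in it. Of the 61 genes 34 were above all other 15 duodenum libraries there and 11 below all of them, whereas no other duodenum library held the highest value of more than 5 genes. The same counts were not made over all tested genes, so they are not read as particular to the enzymes. Against the median of the other 15 libraries, the CPM ratio had a median of 2.43 over the 61 genes, with 1.84 for Cyp, 2.22 for Gst, 3.91 for Ugt and 3.20 for Sult genes. The 12 enterocyte markers were all above the other 15 libraries (median ratio 8.17, range 2.02 to 17.3), and 8 of the 9 EEC markers were below them (median ratio 0.255). The 7 Paneth cell markers were all above as well, with a median ratio of 14.3.

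Within the families the genes of that library went in both directions. Cyp2b10 was at 14.4 times the median of the others, Cyp3a25 at 12.8, Sult1b1 at 9.59, Ugt2a3 at 8.46, Cyp3a13 at 7.45, Cyp3a11 at 6.20 and Gstm1 at 6.18. Cyp2j12 was at 0.125 times that median, Cyp2j5 at 0.167, Ugt1a9 at 0.248 and Gstt1 at 0.522, on the side of the EEC markers. Which cells the transcripts of either set came from was not tested.

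**Figure D4:**
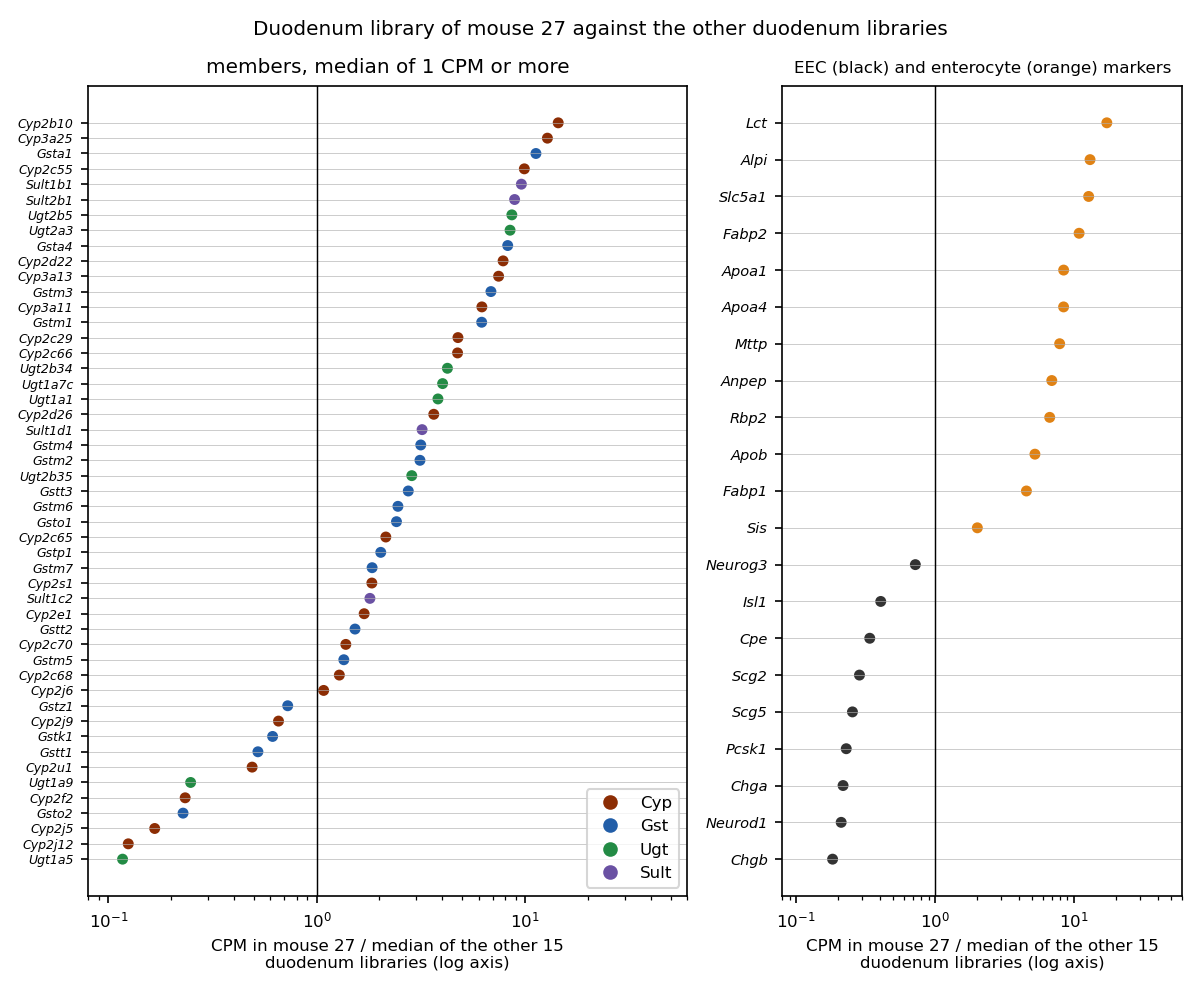
CPM in the duodenum library of S_wm mouse 27 divided by the median of the other 15 duodenum libraries (log axis) for enzyme genes with a median of at least 1 CPM (left, coloured by family) and for EEC and enterocyte markers (right); Cyp2d10, at 0 in that library, is not drawn. The enterocyte markers all lie right of 1 and the EEC markers left of 1, and the enzyme genes spread over both sides.

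The second comparison asked whether sleeve gastrectomy, apart from weight, changed these genes. By edgeR no enzyme gene passed the test between VSG and S_al in any region or averaged over regions (0 of 61, and 0% of all genes), where 4 of the 61 had an unadjusted p under 0.05 for the average, 12 for duodenum, 6 for ileum and 5 for colon. Of all genes 5.53%, 2.45%, 6.16% and 6.28% had such a p. Between VSG and S_wm 4 genes passed in the duodenum, all lower in VSG, which is 6.56% of the 61 against 0.225% of all 15126 genes (0.212% lower). They were Gstm1, Gsta4, Cyp3a25 and Ugt2b5. In the ileum, the colon and the average over regions 0 of 61 passed, with 7, 3 and 15 at an unadjusted p under 0.05, where 0.0463%, 0.0595% and 0.245% of all genes passed. In the duodenum 24 of the 61 had an unadjusted p under 0.05. Of all genes 8.71% had such a p in the duodenum, 6.38% in the ileum, 3.65% in the colon and 9.92% in the average.

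Gstm1 had 152 CPM in mouse 27 and 74.0, 48.1, 25.9 and 23.0 CPM in the other S_wm duodenum libraries, 27.6, 23.1, 21.1, 15.6, 11.2 and 9.51 CPM in VSG, and 23.97 to 67.2 CPM (median 29.9) in S_al. The VSG and S_wm groups overlapped, and the log2 fold change was -1.85 ± 0.33 (edgeR, adjusted p = 0.0112). Gsta4 had 150 CPM in mouse 27, 16.6 to 41.5 CPM in the other S_wm libraries and 9.82 to 27.9 CPM in VSG, a log2 fold change of -1.83 ± 0.40 (edgeR, adjusted p = 0.0418). Cyp3a25 had 234 CPM in mouse 27, 18.1 to 31.8 CPM in the other S_wm libraries and 3.57 to 15.7 CPM in VSG, the only one of the 4 without overlap between the groups, with -2.66 ± 0.60 (edgeR, adjusted p = 0.0463). Ugt2b5 had 15.2 CPM in mouse 27, 1.03 to 4.67 CPM in the other S_wm libraries and 0.405 to 2.17 CPM in VSG, with -2.46 ± 0.58 (edgeR, adjusted p = 0.0477). Mouse 27 was the highest duodenum library for each. With mouse as a replicate block in limma, Gstm1 alone passed (adjusted p = 0.0487), and Gsta4, Cyp3a25 and Ugt2b5 did not (0.259, 0.259 and 0.408).

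Without that library none of the 4 passed. The log2 fold changes were then -1.27 for Gstm1, -0.87 for Gsta4, -1.27 for Cyp3a25 and -1.77 for Ugt2b5 (edgeR, adjusted p = 0.449, 1, 1 and 1), and 0 of 15457 genes passed in the duodenum. Its absence also makes the comparison one within a single library index, D502, since all 6 VSG and the other 4 S_wm duodenum libraries carry it and mouse 27 carries D501. Against S_al, in the fit of all groups whose estimate of the spread includes mouse 27, the log2 fold changes of VSG were -1.03 ± 0.33 for Gstm1, -0.93 ± 0.40 for Gsta4, -1.39 ± 0.59 for Cyp3a25 and -1.26 ± 0.59 for Ugt2b5, and none passed (edgeR, adjusted p = 1 for each).

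**Figure D5:**
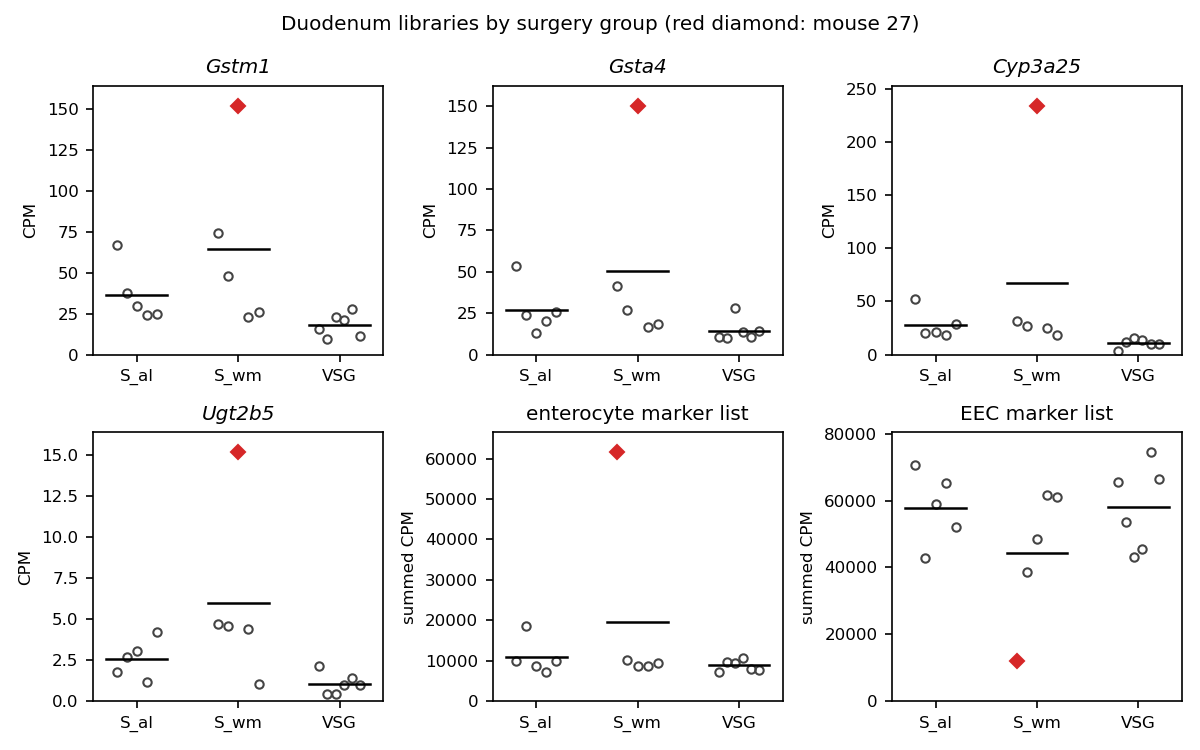
CPM of Gstm1, Gsta4, Cyp3a25 and Ugt2b5 and summed CPM of the enterocyte and EEC marker lists in the 16 duodenum libraries by surgery group (axes start at 0; bars are group means). The red diamond is the library of mouse 27, the highest for the 4 genes and the enterocyte list and the lowest for the EEC list.

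Between S_wm and S_al 0 of 61 genes passed in each region and over the average (edgeR), with 10 in the duodenum, 6 in the ileum, 4 in the colon and 7 in the average at an unadjusted p under 0.05; 0.0529% of all genes passed in the average, 0.0132% in the colon and 0% in the others. Of all genes 6.55%, 7.85%, 3.66% and 6.39% had an unadjusted p under 0.05 in duodenum, ileum, colon and average. The test of whether surgery effects differed between regions passed for 0 of 61 genes (17 at an unadjusted p under 0.05, as had 4.90% of all genes; 0% of all genes passed). In the averages over regions the genes of lowest p were Gstm1 (-0.48 ± 0.19), Cyp2c29 (-2.48 ± 1.12) and Cyp2s1 (-0.23 ± 0.11) for VSG against S_al, and Gstm1 (-0.70 ± 0.19), Cyp2d26 (-0.53 ± 0.16) and Cyp2c68 (-0.43 ± 0.13) for VSG against S_wm. For S_wm against S_al they were Cyp2c68 (0.46 ± 0.14), Gsta3 (-0.95 ± 0.33) and Cyp2c66 (0.74 ± 0.30). The lowest adjusted p of these 9 was 0.118, of Gstm1 between VSG and S_wm (edgeR), and with DESeq2 that comparison passed for Gstm1 alone.

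Of the genes around the enzymes, Dbp and Tef, clock-controlled factors that bind D-box sites, followed the weight-matched group. Against S_al, the weight of that group and its feeding in separate daily portions cannot be told apart. Against VSG, whose weight the S_wm mice were fed to match, surgery and feeding in portions cannot be told apart. Dbp had medians of 67.2 CPM in S_wm, 25.4 CPM in S_al and 21.5 CPM in VSG in the colon, 24.5, 7.03 and 6.83 CPM in the ileum and 18.1, 8.19 and 7.81 CPM in the duodenum. In each region every S_wm library lay above every library of the other groups. Averaged over regions the log2 fold change of Dbp was -1.62 ± 0.15 for VSG against S_wm and 1.48 ± 0.16 for S_wm against S_al (edgeR, adjusted p = 9.2e-10 and 9.61e-08), and that of Tef -0.79 ± 0.12 and 0.67 ± 0.12 (3.54e-05 and 0.00744). These comparisons share the S_wm libraries, and the average counts up to 3 libraries of a mouse. With mouse as a replicate block in limma, the averages were -1.54 and 1.47 for Dbp (adjusted p = 6.05e-08 and 8.09e-07) and -0.77 and 0.66 for Tef (0.000348 and 0.0218), while that of Fmo5 below did not pass (adjusted p = 0.148), nor did Papss2 (0.594) or Dbp (0.0523) in the duodenum. With that block 9 and 4 of all genes passed, against 37 and 8 without it. Without the duodenum library of mouse 27 the VSG value of Dbp was -1.50 and that of Tef -0.71, both past the threshold; in the duodenum alone that of Dbp was -1.01 and did not pass (edgeR, adjusted p = 0.586). With every library of mouse 27 left out, the Tef difference between S_wm and S_al did not pass either (0.50, adjusted p = 0.132). Fmo5 (-0.76 ± 0.17 averaged over regions, edgeR, adjusted p = 0.03) and Papss2 in the duodenum (-1.67 ± 0.37, adjusted p = 0.0418) were lower in VSG than in S_wm, and neither passed without that library (-0.59 and -0.35, adjusted p = 0.0555 and 1).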

How the data were processed

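Whole-number counts per gene of 48 sorted EEC libraries were deposited; the authors made them from total RNA libraries (SMARTer stranded pico input) by alignment with STAR 2.5.1 to GRCm38, and the strand setting of the counting is not given in the sources used here. The 9 combinations of region and surgery were fitted together in edgeR 4.0.16 (R 4.3.3; filterByExpr, TMM, robust quasi-likelihood test, Benjamini-Hochberg adjustment over 15126 genes, threshold 0.05). The standard error is the log2 fold change divided by the root of F. DESeq2 1.42.0, limma 3.58.1, other filters and scalings, a term for the library index and leaving out each mouse were alternatives. The fit was tested on simulated data.

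Coordinates and exon lengths were from GENCODE M21. Named genes were, by region comparison, family and direction, up to 3 of largest change with a mean of at least 1 CPM in the higher region, the 3 of highest level per exon length by family and region, every gene past the threshold after surgery, the 3 of lowest p per surgery comparison averaged over regions, and pathway genes past the threshold after surgery or of largest change between regions. Further genes of the arrays were named after their values were seen. The genes, lists and tests were chosen with earlier results of these data known.

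Libraries of one mouse share its number across regions, and 15 of 17 mice have all 3 regions. Residuals of libraries of the same mouse had a median correlation of 0.105 (-0.0201 to 0.389, 26 of 46 pairs over 0.1). Surgery groups hold different mice and are unpaired.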

Additional observations from a re-analysis of the deposited data

Results flagged for a closer look

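In 10 measures over 90 groups of 5 or 6 libraries, 12 groups had a library far from the others by Dixon's test at the 95% level. A rate of about 1 in 20 groups holds at that level for independent, normally distributed values. The CPM values were not put on a log scale and the measures overlap, so the 12 are not set against that rate. Of the 12 flagged libraries, 8 were the S_wm duodenum library of mouse 27. It had summed levels of 4174 CPM for Cyp (others 1071 to 1189), 1329 CPM for Gst (644 to 764), 1259 CPM for Ugt (297 to 399) and 1117 CPM for Sult genes (219 to 287), and 61548 CPM for the enterocyte markers (8619 to 10260). It also had 234 CPM for Cyp3a25 (18.1 to 31.8), 150 CPM for Gsta4 (16.6 to 41.5) and 15.2 CPM for Ugt2b5 (1.03 to 4.67), genes that were searched because they passed the test in a comparison with this library, so that these 3 are no independent flags. The part of enterocyte transcripts in the enzyme levels of this library was not tested.

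The summed Gst level of the S_al ileum was 566 CPM in mouse 24 (others 348 to 402). The enterocyte markers of the S_al duodenum summed to 18665 CPM in mouse 32 (7128 to 9999). Cyp3a25 in the S_al colon was at 3.17 CPM in mouse 32 (0 to 0.487), and Gsta4 in the VSG duodenum at 27.9 CPM in mouse 22 (9.82 to 14.1).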

How the results depend on the processing

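For the 4 comparisons with enzyme genes called, 83 of 103 recomputed counts lay within 1.5 times the value reported. The other 12 reported 0 genes, and 3 of their 300 recomputed counts were above 0. For VSG against S_wm in the duodenum (4 genes) DESeq2 called 11, no filter 1, a stricter filter 7, limma with the replicate block for mouse 1, the library index term 0 and the set without the duodenum library of mouse 27 0; leaving out each mouse in turn gave 0 to 10. DESeq2 called 1 gene for VSG against S_wm over the average of regions and 1 (Gsta4) for the interaction, and the index term 3 for S_wm against S_al in the duodenum (Gsta4, Gstm1 and Ugt2b34). Counts of genes that differed between regions (38, 50 and 43) were 40, 49 and 42 with mouse as a replicate block and 32, 37 and 37 with the index term. Of all 15126 genes 5110, 8322 and 7436 differed, and 1713, 4236 and 5720 with the index term. With mouse as a block the counts over all genes were 5327, 8499 and 7759 in edgeR and 5691, 8882 and 7781 in limma. Directions turned only with the index term, for Ugt1a5 (0.53 for ileum and 0.86 for colon against duodenum), Ugt1a7c (-0.23, colon against duodenum), Srxn1 (-0.17, ileum against duodenum) and Aldh1a1 (-0.0507, colon against duodenum); the cause was not tested. Index and region overlap in large part. All 16 duodenum libraries carry D501 or D502, which only 8 other libraries carry. Among all genes tested for VSG against S_wm in the duodenum 34 passed, 9 with no filter, 76 with the stricter filter, 71 with DESeq2 size factors, 216 with DESeq2, 5 in limma with the block, 0 with the index term and 0 to 226 with 1 mouse left out. The index term called 263 of all genes for S_wm against S_al in the duodenum.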

Other observations

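Cyp1a1, the enzyme best known as a target of the aryl hydrocarbon receptor and named after its values were seen, was at 0 in 7 duodenum, 10 ileum and 10 colon libraries and high in a few. It had 13.9 CPM in the duodenum, 27.2 CPM in the ileum and 1.36 CPM in the colon of S_al mouse 32. In S_wm mouse 27 it had 21.4, 0.568 and 0 CPM, and in VSG mouse 28 8.46, 0 and 2.06 CPM.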
